A study of Rattus norvegicus with 15 samples.

Results

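The transporters and enzymes of the proximal tubule were followed in kidney cortex and mesenteric artery of Dahl salt-sensitive (SS) rats. The members were the 39 genes of a list written for the proximal tubule: carriers of phosphate, sugar, amino acids, organic acids and bicarbonate, the endocytic receptors, brush border peptidases, and the enzymes of vitamin D, glucose and amino acid metabolism. They were matched by gene name to 39 of the 34357 rows that carry a gene identifier, 1 row each, and no measured value entered the matching. The list was chosen with earlier results of these data known. RNA-seq of total RNA gave 15 libraries, all labelled male: 3 wild-type and 4 deletion kidney cortices, and 4 wild-type and 4 deletion mesenteric arteries. All groups share the SS background, an inbred strain whose blood pressure rises with dietary salt. The deletion rats lack 30.4 kb of noncoding DNA (chromosome 2, bases 60825801 to 60856216 of the rn7 build), orthologous to a human haplotype block, and the study asked which genes this loss affects. The labels give the deletion samples as knockout and name no age, diet or number of founder lines. They do not say whether each library came from its own animal, so p-values measure the spread between these libraries.

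The proximal tubule is the first stretch of the nephron after the glomerulus. Its cells take back most of the filtered sodium, phosphate, glucose, amino acids, bicarbonate and small proteins through carriers and endocytic receptors of the brush border, driven by the sodium pump of the opposite membrane. The early and the late stretch use different carriers for the same solute, often one of high capacity followed by one of high affinity. The cells also make glucose, creatine precursors, arginine and active vitamin D.

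Values are FPKM, in which fragments are divided by gene length and library size, so levels can be compared between genes. Read depth is unknown. Summed FPKM ranged from 376270 to 459847 over the kidney libraries and from 285679 to 433477 over the artery libraries. No row with an identifier lies in the deleted interval, so nothing in it tests the genotype labels. Several libraries stand apart. In the library labelled kidney wild-type 3, Xist, which is transcribed from an inactive X chromosome, stood at 81.1 FPKM, and the Y-linked gene Eif2s3y was listed at 0. In the other 6 kidneys Xist was at most 0.43 and Eif2s3y at least 35.9 FPKM, so this library goes against its male label. In kidney deletion 2 the small cytoplasmic RNA Rn7sl1 took 22% of the summed FPKM, against 8.23% to 15.1% in the other kidneys. Artery wild-type 1 held intestinal transcripts, and artery wild-type 4 held 33% haemoglobin. Values without kidney wild-type 3, kidney deletion 2, artery wild-type 1 or artery wild-type 4 stand beside the results that change with them.

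All 39 members were present in kidney cortex, and together they made up 3.05% to 3.73% of the summed FPKM in 6 kidneys and 1.9% in deletion 2. In the mean over the 7 kidneys, 5 members stood at 1000 FPKM or more, 16 between 100 and 1000, 17 between 10 and 100, and 1 below 10. Kap, a small androgen-regulated protein of the rodent kidney, led at 2218 FPKM ± 679 (SD, n = 7). It was followed by the gluconeogenic enzyme Pck1 at 1486 ± 261 and Gatm, which makes the precursor of creatine, at 1471 ± 378 FPKM (SD, n = 7 each). Miox, which opens the breakdown of inositol, and Slc34a1, the main phosphate carrier of the brush border, stood at 1064 ± 208 and 1039 ± 111 FPKM (SD, n = 7 each). Kap exceeded Pck1 in 7 of 7 libraries, whereas Pck1 exceeded Gatm in only 4 of 7 and was not separated from it beyond the spread. Nor were Ggt1 (366 ± 114) and Ass1 (364 ± 112 FPKM; SD, n = 7 each) separated, with Ggt1 higher in 4 of 7 libraries. At the low end stood Slc5a1 at 12.3 ± 4.49, Cyp24a1 at 11.8 ± 4.51 and Cyp27b1 at 1.01 ± 0.617 FPKM (SD, n = 7 each). Slc5a1 was above Cyp24a1 in 3 of 7 libraries, and Cyp27b1 was the lowest member in all 7.

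**Figure D1:**
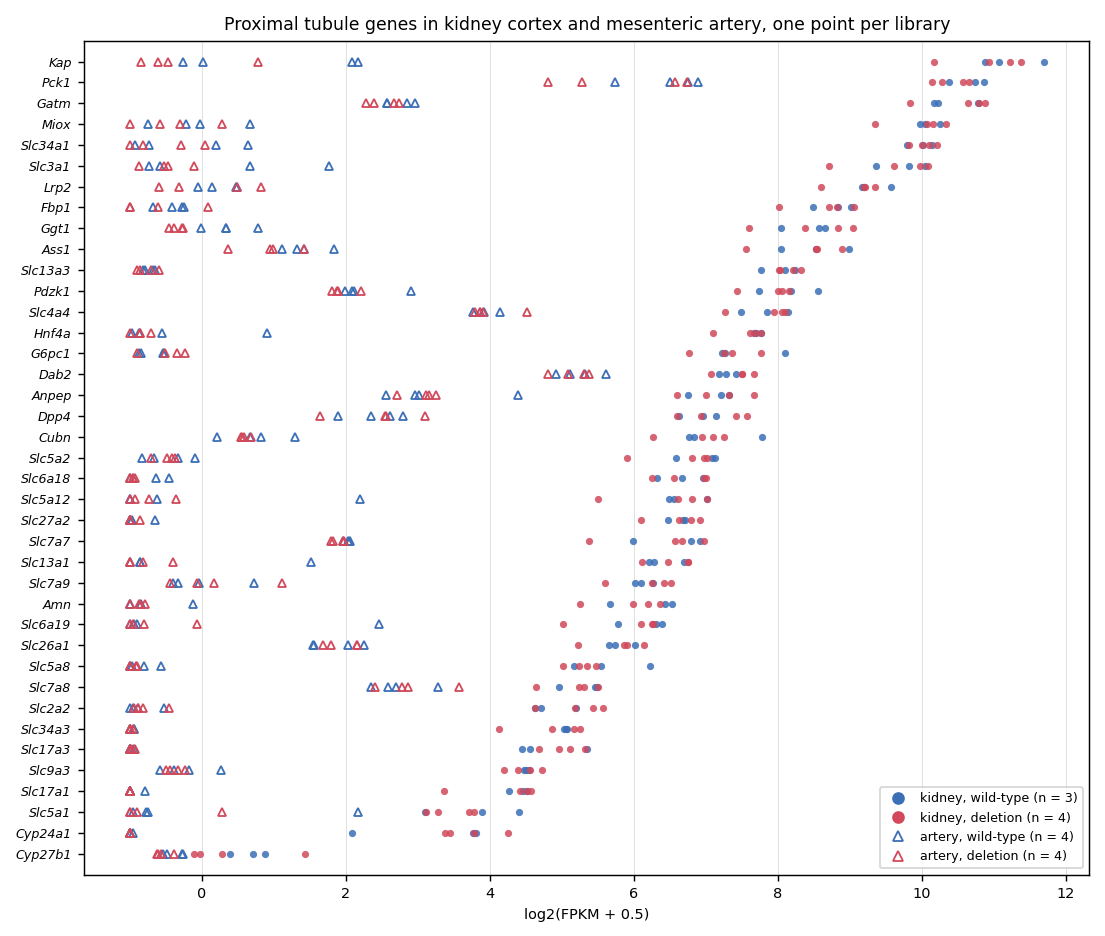
Level of each of the 39 genes as log2(FPKM + 0.5), with genes ordered by mean kidney level, filled circles for the 7 kidney libraries and open triangles for the 8 artery libraries (blue wild-type, red deletion). No artery point reaches the kidney points of the same gene, and within kidney the blue and red points are mixed.

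Every one of the 39 was higher in kidney, with no overlap between the 7 kidney and 8 artery libraries for any member, against 24.2% of all genes tested. The test (limma on log2(FPKM + 0.5) over all 15 libraries with genotype as a covariate) called all 39 at a Benjamini-Hochberg adjusted p under 0.05. Over all 17842 genes tested, 77.4% were called, and 35.1% were called higher in kidney. The members were listed as kidney genes, and 19 of 39, Slc34a1 and Cyp27b1 among them, averaged under 0.5 FPKM in artery. Those 19 entered the test only through kidney. The calls and p-values of this comparison therefore describe the list and are no support for it. The median log2 difference of the members was 6.35, against -0.13 over all genes tested. Kap and Slc34a1 had the widest gaps, with log2 differences of 10.75 (SE 0.39, limma adjusted p = 1.56e-13) and 10.39 (SE 0.22, limma adjusted p = 1.38e-16). The members with the highest artery means, picked after their values were seen, were Pck1, Dab2, Slc4a4, Anpep and Slc7a8. Pck1, which fat cells also use for glycerol synthesis, averaged 79.4 FPKM ± 34.7 in artery, Dab2, an endocytic adaptor of many cell types, 36.6 ± 6.79, the bicarbonate carrier Slc4a4 15.4 ± 3.07, the aminopeptidase Anpep 9.05 ± 4.77, and the amino acid exporter Slc7a8 6.83 ± 2.33 (SD, n = 8 each). Without the 20.5 FPKM of wild-type 1, Anpep ranged from 5.36 to 9.06 over 7 arteries. Dab2 accordingly had a log2 difference of only 2.18 (SE 0.12, limma adjusted p = 7.07e-11). The smallest was that of Cyp27b1, at 0.99 (SE 0.19, limma adjusted p = 0.000148), a gene that was also low in kidney.

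The upstream sequences of the members were searched for the motif of HNF4, a transcription factor that shapes proximal tubule identity. RefSeq promoter windows on the GRCr8 build, 250 bases before to 50 after the gene start, were matched to 38 of 39 members (39 windows, 2 of them for Hnf4a). The HNF4 sequence CAAAGTCCA, read on both strands, was found in 2 of the 39 windows (5.13%) and in 0.391% of all 33469 windows. A TATA box (TATAAA, both strands) was found in 20.5% of the member windows and 14.2% of all. These are matches of letters, not sites shown to be bound, and they give no p. The 250 bases before the start are shown for both HNF4 matches, with the match in capitals.
Pdzk1, chr2:187064745-187064994, plus strand: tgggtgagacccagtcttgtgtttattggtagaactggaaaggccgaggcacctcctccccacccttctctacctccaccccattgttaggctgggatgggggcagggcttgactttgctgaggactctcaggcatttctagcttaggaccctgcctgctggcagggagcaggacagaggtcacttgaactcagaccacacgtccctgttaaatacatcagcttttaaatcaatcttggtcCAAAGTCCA
Slc3a1, chr6:15394750-15394999, minus strand: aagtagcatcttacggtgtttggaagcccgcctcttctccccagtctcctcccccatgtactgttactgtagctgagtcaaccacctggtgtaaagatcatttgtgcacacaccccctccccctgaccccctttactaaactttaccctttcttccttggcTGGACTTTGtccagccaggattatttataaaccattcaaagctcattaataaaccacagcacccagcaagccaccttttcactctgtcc
In Pdzk1 the HNF4 match ends at the last base before the start, and in Slc3a1 it lies on the opposite strand, 89 to 81 bases before the start.

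No member was called different between deletion and wild-type kidneys. Of 39 members, limma called 0 (deletion against wild-type, adjusted p under 0.05), with 0 at an unadjusted p under 0.05. Over all 15444 genes tested in kidney, 0% were called and 1.41% had an unadjusted p under 0.05. No member separated the genotypes without overlap, against 2.55% of all genes. The log2 fold changes of the members ran from -0.38 for Slc5a8 to 0.49 for Cyp24a1, and the 95% confidence interval of each of the 39 spanned 0. The intervals were wide, as the plot of the deletion effect shows: that of Slc9a3, the narrowest, ran from -0.35 to 0.27 on the log2 scale, and that of Cyp24a1 from -0.41 to 1.39. Of the members 14 had values above 0 and 25 below, with a median of -0.13, against a median of 0.04 over all genes, of which 39.8% lay below 0. With median-of-ratios scaling the split was 8 above and 31 below. Without deletion 2 it turned to 27 above and 12 below, with a median of 0.12. Without both wild-type 3 and deletion 2 it was 34 above and 5 below, with 2 of 39 members at an unadjusted p under 0.05, against 2.9% of all genes in that fit, and 0 called. Leaving out any of the other 6 kidneys alone kept most members below 0 (23 to 31 of 39). Among single libraries left out, only deletion 2 turned the direction of the lean. The lean also shrank without wild-type 3 alone, to a median of -0.04 with 23 of 39 below 0.

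**Figure D2:**
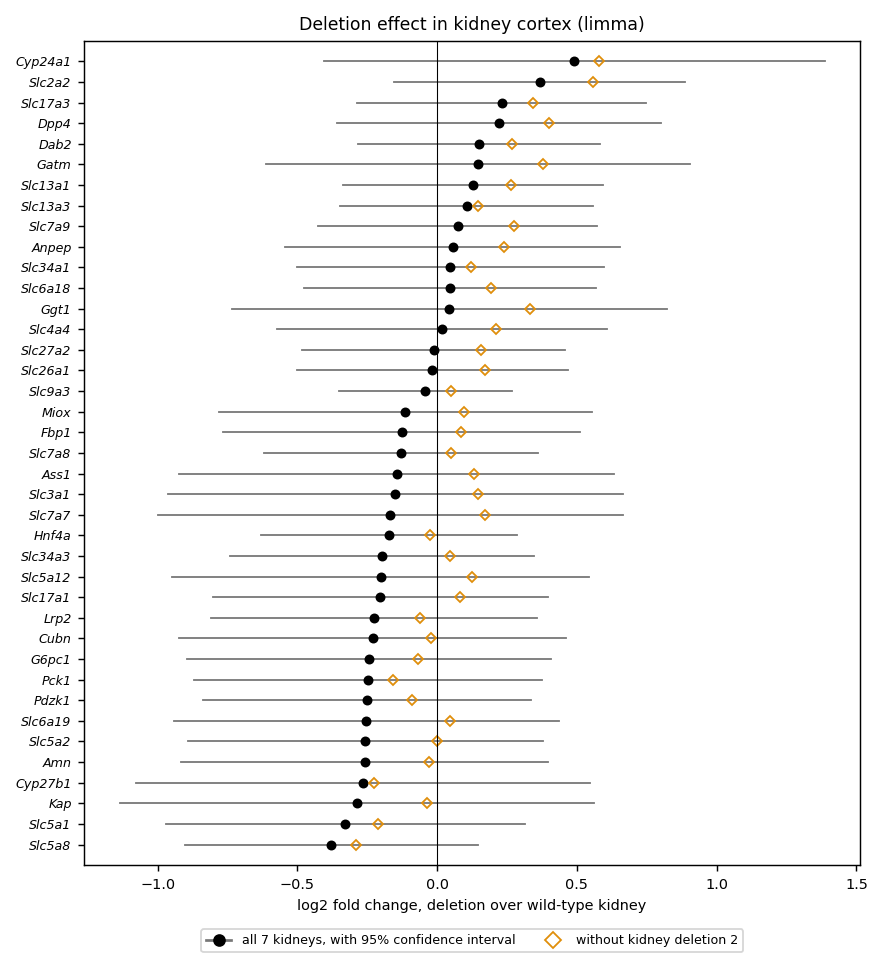
Log2 fold change of each member, deletion over wild-type kidney, from limma (black points, all 7 libraries, with 95% confidence intervals) and without kidney deletion 2 (orange diamonds). All intervals cross 0, and leaving out deletion 2 moves the median from -0.13 to 0.12.

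In deletion 2 the members were low together. All 39 stood below the median of the other 6 kidneys in this library, by 8.8% for Slc13a3 at the least and 61% for Slc7a7 at the most, with a median of 37.1%. Deletion 2 was the lowest of the 7 kidneys for 32 of 39 members (82.1%), against 19.2% of all kidney genes. After median-of-ratios scaling it was lowest for 37 of 39 (94.9%), against 35.5% of all genes. The basolateral carrier Slc7a7 stood at 41.1 FPKM in it and between 63.1 and 125 in the others, the neutral amino acid carrier Slc6a19 at 31.9 against 54.6 to 83.7, the lactate carrier Slc5a12 at 44.9 against 89.5 to 129, and the phosphate and urate carrier Slc17a1 at 9.77 against 18.8 to 23.3. Slc34a1 stood nearer the other kidneys, at 903 FPKM against 892 to 1187 in the others. At the other end, deletion 3 was the highest of the 7 for 21 of 39 members (53.8%), against 7.45% of all genes. After median-of-ratios scaling it was the highest for 22 of 39 (56.4%), against 18.4% of all genes.

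As deposited, several but not all lists of markers of other kidney cells were higher in deletion 2 than in any other kidney. Gene by gene, deletion 2 was the highest of the 7 for 37.7% of all kidney genes, and for 20.5% after median-of-ratios scaling. The list sums that follow are as deposited and were not rescaled, so high sums are partly shared with genes at large. Median-of-ratios scaling divides each library by a factor, which was 1.17 in deletion 2 and 1.05 in wild-type 1. Divided by these factors, the distal tubule and endothelial sums would be higher in wild-type 1 than in deletion 2. The summed FPKM of 5 podocyte markers was 202 in it, against 96.1 to 158 in the other 6 kidneys, that of 8 collecting duct markers 299.7 against 168 to 233, and that of 7 thick ascending limb and distal tubule markers 1701 against 1202 to 1672, where Pvalb was at 0 in every kidney. Smooth muscle markers summed to 58.9 FPKM against 25.8 to 41.1 (5 markers), and endothelial markers to 77.8 against 52.5 to 74.4 (5 markers). The 5 immune markers summed to 28 FPKM against 10.9 to 24.2. Genes encoded by mitochondrial DNA took 11.7% of the sum, against 6.37% to 8.98%. The 5 tubule injury markers summed to 101 FPKM, 1.55 times the median of the others, with only deletion 1 higher at 109 and the lowest at 46.9. The 5 fibroblast markers (184 against 135 to 187), the 5 adipocyte markers (11.1 against 10.5 to 21.9) and the 5 erythrocyte markers (3883 against 2033 to 4914 FPKM) lay within the range of the others. In bulk tissue, fewer cells of a type and less RNA per cell cannot be told apart, and the part of these other cell types in the low values of deletion 2 was not tested.

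**Figure D3:**
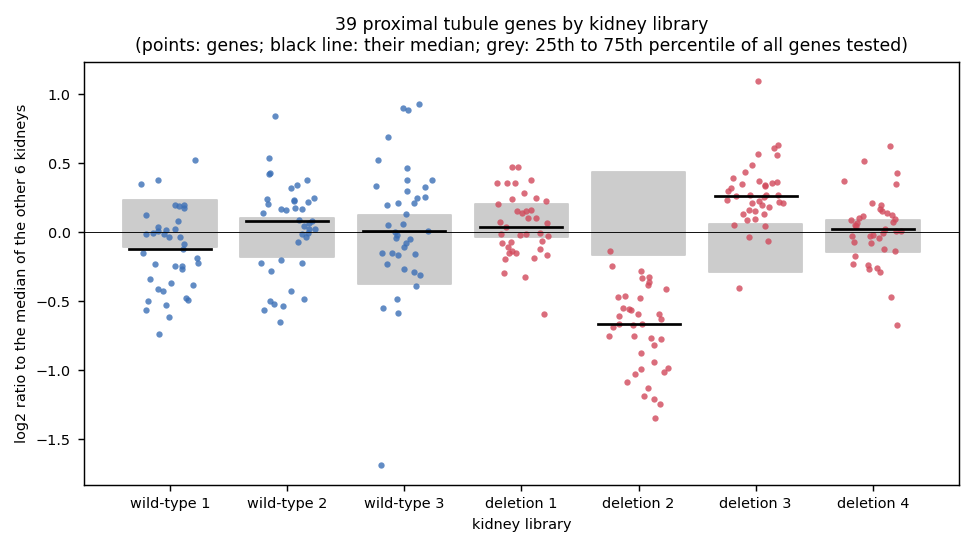
Log2 ratio of each member to its median in the other 6 kidneys, by library (points are genes, black lines their median, grey bands the 25th to 75th percentile of all kidney genes tested). In deletion 2 all 39 points lie below 0 while the band lies mostly above it, and in deletion 3 most points lie above the band.

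Among carriers of phosphate, sulfate and organic anions, the levels in the genotypes overlapped throughout. Slc34a1 held 1126, 1040.0 and 892 FPKM in the wild-type kidneys and 1026, 903, 1187 and 1099 in the deletion kidneys. Its smaller relative Slc34a3 held 32.1, 33.1 and 32.7 FPKM among wild-type kidneys, against 28.7, 17, 37.6 and 35.5 among deletion kidneys. The 3 wild-type values of Slc34a3 lay close together, inside the wider range of the deletion group. Slc34a1 exceeded Slc34a3 by 27.2 to 53.2 times within a library, the highest ratio being that of deletion 2. Pdzk1, the scaffold that holds Slc34a1 and other carriers in the brush border, held 214, 292 and 376 FPKM among wild-type kidneys, against 256, 172, 286 and 266 among deletion kidneys. The group means of Pdzk1 were 294 ± 81.2 (SD, n = 3) and 245 ± 50.3 FPKM (SD, n = 4), with a log2 fold change of -0.25 (SE 0.26, limma adjusted p = 0.999). Slc17a3, an exporter of organic anions next to Slc17a1 on chromosome 17 (15.6 kb apart on rn7), held 40.2, 23 and 21.4 FPKM among wild-type kidneys, against 34.1, 25.1, 39.3 and 30.6 among deletion kidneys. Its log2 fold change was 0.23 (SE 0.23, limma adjusted p = 0.999). The sulfate carriers Slc13a1 of the brush border and Slc26a1 of the basolateral side ran from 68.9 to 108 and from 37 to 70.4 FPKM over the 7 kidneys.

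The sugar carriers divide between early and late tubule. Slc5a2 (SGLT2), the high-capacity glucose carrier of the early stretch, held 95.2, 139 and 136 FPKM among wild-type kidneys, against 112, 59.4, 125 and 129 among deletion kidneys. Slc5a1 (SGLT1), the high-affinity carrier of the late stretch, held 14.3, 8.05 and 20.7 FPKM among wild-type kidneys, against 12.5, 8.16, 13.2 and 9.18 among deletion kidneys. The lowest values of Slc5a1 thus came from one library of each genotype. Slc5a2 exceeded Slc5a1 by 6.54 to 17.3 times within a library, most in wild-type 2 (17.3) and deletion 4 (14) and least in wild-type 3 and wild-type 1 (6.65). The log2 fold changes were -0.26 for Slc5a2 (SE 0.28) and -0.33 for Slc5a1 (SE 0.29), both with a limma adjusted p of 0.999. Slc5a1 turned to 0.09 without wild-type 3 and deletion 2. Slc2a2 (GLUT2), through which glucose leaves the cell, held 24.2, 36 and 25.6 FPKM among wild-type kidneys, against 42.9, 24.3, 47.2 and 35.9 among deletion kidneys. For Slc2a2, 2 deletion kidneys lay above all wild-type values and 1 lay among the lowest. Deletion over wild-type was 1.29-fold (95% confidence interval 0.899 to 1.85, log2 0.37, SE 0.23, limma adjusted p = 0.999). Without deletion 2 the log2 value was 0.56 (SE 0.18, limma unadjusted p = 0.0123, adjusted p = 1), the member with the smallest p in that fit. Slc2a2 lies on chromosome 2, as the deleted interval does, but 50.8 Mb from it (111609798 to 111639930, plus strand).

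Carriers of lactate, dicarboxylates and fatty acids gave the member with the smallest p in kidney, Slc5a8. This sodium-coupled lactate carrier of the late tubule held 35.6, 46.4 and 74.6 FPKM among wild-type kidneys, against 40.4, 31.7, 44.2 and 37.4 among deletion kidneys. Only wild-type 2 and wild-type 3 lay above all deletion values. The means were 52.2 ± 20.2 (SD, n = 3) and 38.4 ± 5.25 FPKM (SD, n = 4), a log2 fold change of -0.38 (SE 0.23, limma adjusted p = 0.999; before adjustment 0.139). Without wild-type 3 and deletion 2 this value was -0.00133. Slc5a12, its low-affinity relative of the early tubule, ran from 44.9 to 129 FPKM, and exceeded Slc5a8 by 1.26 to 3.46 times within a library, least in wild-type 3. Slc13a3, the basolateral dicarboxylate carrier, was among the steadiest members, from 218 to 320 FPKM with a coefficient of variation of 12.3%. Slc27a2, which activates very long chain fatty acids, ran from 68.3 to 121 FPKM.

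The amino acid carriers showed the same overlap. Slc3a1, the heavy chain of the cystine carrier, held 903, 658 and 1061 FPKM among wild-type kidneys, against 1005, 418, 1083 and 783 among deletion kidneys. Its light chain Slc7a9 held 64.4, 76.3 and 67.9 among wild-type kidneys, against 85, 48, 91.4 and 76.1 FPKM among deletion kidneys. The heavy chain therefore exceeded the light chain by 8.62 to 15.6 times. For Slc7a9, deletion 1 and deletion 3 were above the wild-type range and deletion 2 below it. Slc6a19 and Slc6a18 are neighbours on chromosome 1, 2.32 kb apart on rn7, and serve the early and the late tubule. Slc6a19 was above Slc6a18 only in wild-type 2, where their ratio was 1.05, and the ratio was between 0.419 and 0.808 in the other kidneys. Slc7a7 and Slc7a8, light chains that let amino acids out into blood, ran from 41.1 to 125 and from 24.4 to 45 FPKM, with Slc7a7 above Slc7a8 in each library by 1.68 to 2.77 times.

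Of the sodium and bicarbonate carriers, Slc9a3 (NHE3), the sodium-proton exchanger of the brush border, held 22.2, 22.8 and 21.8 FPKM among wild-type kidneys, against 23.1, 17.8, 25.8 and 20.5 among deletion kidneys. The means were 22.3 ± 0.479 (SD, n = 3) and 21.8 ± 3.45 FPKM (SD, n = 4). Its coefficient of variation of 11.2% was the next smallest of the members after that of Slc34a1 (10.6%), against a median of 24.9% over the 39 and of 13.9% over the 5876 kidney genes that average 10 FPKM or more. Without wild-type 3 and deletion 2 those medians were 15.5% and 9.49%. Slc4a4 (NBCe1), which returns bicarbonate to blood, ran from 153 to 283 FPKM, and the group means were 231 ± 52.3 (SD, n = 3) and 235 ± 56.2 (SD, n = 4).

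Of the receptors that take up filtered protein, Lrp2 (megalin) held 576, 586 and 764 FPKM among wild-type kidneys, against 588, 387, 653 and 592 among deletion kidneys. The highest value was that of wild-type 3 and the lowest that of deletion 2, and the remaining 5 libraries lay between 576 and 653. The log2 fold change was -0.23 (SE 0.26, limma adjusted p = 0.999), and 0.07 without those 2 libraries. Cubn (cubilin), which binds vitamin B12 with its carrier, held 108, 113 and 220 FPKM among wild-type kidneys, against 152, 76.6, 137 and 123 among deletion kidneys. Amn (amnionless), which anchors cubilin in the membrane, held 50.4, 91.8 and 85.7 among wild-type kidneys, against 62.9, 37.6, 81.6 and 72.9 FPKM among deletion kidneys. Its log2 fold change was -0.26 (SE 0.29, limma adjusted p = 0.999), with 0.08 without those 2 libraries. Megalin exceeded cubilin by 3.48 to 5.33 times and cubilin exceeded amnionless by 1.23 to 2.56 times. Dab2, the adaptor that links megalin to clathrin, held 155, 171 and 144 FPKM among wild-type kidneys, against 181, 135, 203 and 181 among deletion kidneys. Dab2 is the member closest to the deleted interval, 5.26 Mb away on chromosome 2 (55514692 to 55567476, plus strand). Its log2 fold change was 0.15 (SE 0.19, limma adjusted p = 0.999).

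The brush border peptidases were spread widely among the deletion kidneys. Dpp4, which cuts incretin hormones, held 141, 98.4 and 124 FPKM among wild-type kidneys, against 171, 96.2, 191 and 122 among deletion kidneys, with a log2 fold change of 0.22 (SE 0.26, limma adjusted p = 0.999). Ggt1, which starts the breakdown of glutathione, held 402, 264 and 380 FPKM among wild-type kidneys, against 457, 194, 529 and 332 among deletion kidneys. Anpep ran from 96.4 to 204 FPKM. All 3 peptidases were lowest in deletion 2 and highest in deletion 3, so that the deletion group held both ends of the range.

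The enzymes of vitamin D were the least even members. Cyp24a1, which inactivates vitamin D, held 13.6, 13.1 and 3.75 FPKM among wild-type kidneys, against 13.3, 10.4, 9.87 and 18.5 among deletion kidneys. Apart from wild-type 3 the groups overlapped. The log2 fold change of 0.49 (SE 0.40, limma adjusted p = 0.999) was the highest of the members and became -0.08 without wild-type 3. Cyp27b1, which makes active vitamin D, held 0.811, 1.33 and 1.14 FPKM among wild-type kidneys, against 0.48, 0.712, 2.2 and 0.428 among deletion kidneys. Its coefficient of variation was 60.8%, the largest of the 39. Deletion 3 combined the highest Cyp27b1 with the lowest Cyp24a1 of its group, and the ratio of Cyp24a1 to Cyp27b1 ran from 3.29 in wild-type 3 to 43.2 in deletion 4.

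Of the enzymes that make glucose, Pck1 held 1336, 1858 and 1704 FPKM among wild-type kidneys, against 1248, 1129, 1519 and 1609 among deletion kidneys. Wild-type 2 and wild-type 3 lay above all deletion values, and wild-type 1 lay within them. The log2 fold change was -0.25 (SE 0.28, limma adjusted p = 0.999). G6pc1, which releases free glucose, held 149.7, 274 and 153 FPKM among wild-type kidneys, against 164, 108, 152 and 218 among deletion kidneys. Fbp1, the bisphosphatase of the same pathway, ran from 258 to 535 FPKM. The ratio of Pck1 to G6pc1 stayed between 6.79 and 11.1. Among other metabolic enzymes, Gatm ran from 917 to 1890.2, Miox from 650.2 to 1290.5, and Ass1, which provides the precursor of arginine, from 187 to 510 FPKM, the highest Ass1 being that of wild-type 3.

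Hnf4a, a transcription factor that drives proximal tubule genes, held 208, 218 and 203 FPKM among wild-type kidneys, against 196, 137, 217 and 205 among deletion kidneys. Deletion 2 alone stood apart, and the log2 fold change of -0.17 (SE 0.21, limma adjusted p = 0.999) was -0.03 without it. Kap held 2157, 1880.1 and 3317 FPKM among wild-type kidneys, against 2403, 1153, 2663 and 1949.6 among deletion kidneys, so the highest value was that of wild-type 3 and the lowest that of deletion 2. The group means were 2452 ± 762 (SD, n = 3) and 2042 ± 662 FPKM (SD, n = 4).

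Wild-type 3, the library whose sex-linked genes went against its label, lay outside the range of the other 6 kidneys for 11 of 39 members (28.2%), against 50.2% of all kidney genes. It was above the others for Kap, Lrp2, Ass1, Pdzk1, Cubn, Slc5a8 and Slc5a1, and below them for Slc34a1, Slc13a3, Slc17a3 and Cyp24a1. Relative to the median of the other 6, Slc5a8 stood at 1.92 times, Slc5a1 at 1.91 times, Cubn at 1.86 times, and Kap at 1.62 times. Cyp24a1 stood at 0.284 times that median, Slc17a3 at 0.661 times and Slc13a3 at 0.763 times. These places and ratios are of values as deposited. After median-of-ratios scaling wild-type 3 was the highest kidney for 13 of 39 members and the lowest for 1. Over all genes those shares were 28.9% and 19.5%. Most of the places below the other kidneys thus depend on the scale. The organic anion carrier Slco1a1 read 0.0505 FPKM here, while the other kidneys gave 49.96 to 133, and the alcohol dehydrogenase Adh6 at 172 against at most 0.805. This library is 1 of 3 wild-type kidneys, so the deletion effect of a member in kidney and the difference of this library cannot be told apart with all 7 libraries. Without it limma called 0 of 39 members, with 0 at an unadjusted p under 0.05 and a median log2 fold change of -0.04.

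**Figure D4:**
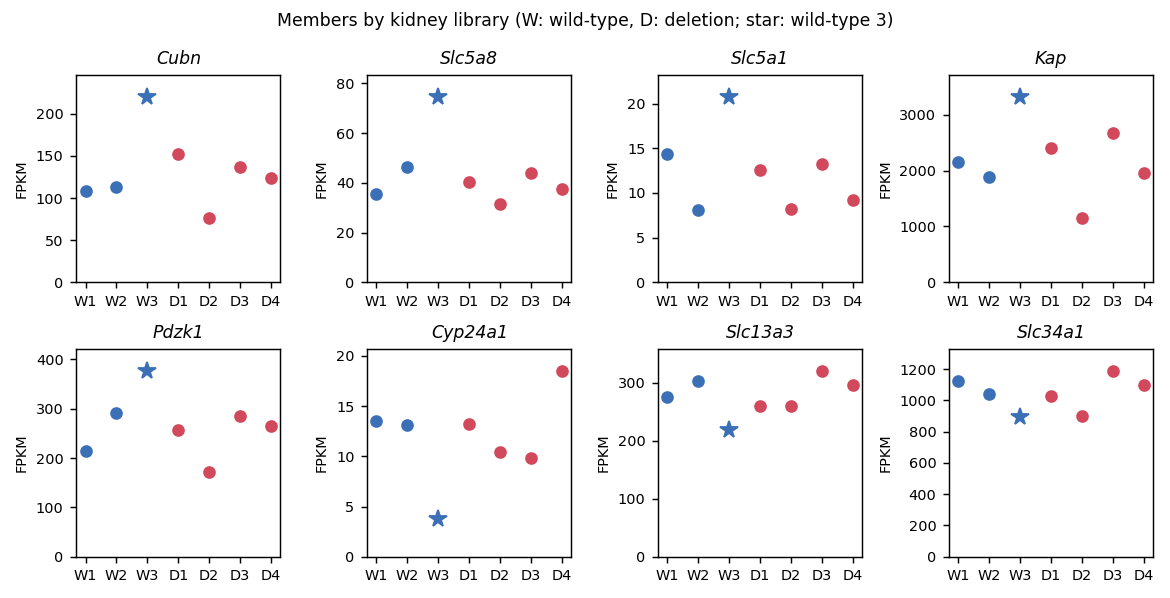
FPKM of 8 members in each kidney library (W wild-type, D deletion, linear axes from 0), with wild-type 3 as a star. The star is the highest point for Cubn, Slc5a8, Slc5a1, Kap and Pdzk1 and the lowest for Cyp24a1, Slc13a3 and Slc34a1.

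Lists of further proximal tubule genes showed the same absence of calls in kidney. Limma called 0 of 11 measured peptidases, 0 of 13 genes of the endocytic machinery, 0 of 13 genes of phosphate and hormone control, 0 of 15 genes of glucose, fructose and ammonia metabolism, 0 of 18 other carriers, 0 of 17 other enzymes and 0 of 7 transcription factors. The medians of their log2 fold changes ran from -0.24 for the peptidases to 0.06 for the transcription factors, against 0.04 over all genes. Only the phosphate and hormone list held genes with an unadjusted p under 0.05, 1 higher and 1 lower. Slc34a2, a phosphate carrier better known from lung and gut, averaged 6.01 FPKM ± 0.585 across the 3 wild-type and 10.1 FPKM ± 3.83 across the 4 deletion kidneys (SD; log2 0.65, SE 0.24, limma adjusted p = 0.999). Nherf4, a scaffold related to Pdzk1, averaged 18.3 ± 5.97 (SD, n = 3) and 12.8 ± 1.58 FPKM (SD, n = 4) with a log2 fold change of -0.45 (SE 0.20, limma adjusted p = 0.999). In deletion 2 the summed FPKM was 0.506 times the median of the other 6 kidneys for the peptidases, 0.584 for the other enzymes, 0.591 for the metabolism list and 0.616 for the other carriers. It was 0.678 for the endocytic machinery, 0.856 for the phosphate and hormone list and 0.911 for the transcription factors.

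In artery most members were near 0. Of 39, 20 averaged 0.5 FPKM or more and were tested, and 17 were listed at 0 in at least 1 artery. Limma called 0 of the 20, against 0% of all 16470 genes, and 1 had an unadjusted p under 0.05, against 5.24% of all. That member was Ggt1, at 1.21, 0.761, 0.765 and 0.493 FPKM in the wild-type and 0.265, 0.229, 0.322 and 0.332 in the deletion arteries. The groups did not overlap for Ggt1 alone (1 of 20, or 5%, against 3.25% of all genes). The log2 fold change of Ggt1 was -0.71 (SE 0.20, limma adjusted p = 0.893; before adjustment 0.00602). Ggt1 passed the filter, with a mean of 0.547 FPKM, only through the wild-type group, so this p is no support for a difference, and without wild-type 1 it was not tested. The next smallest p was that of Kap, at 3.75, 4.003, 0.515 and 0.337 FPKM among wild-type arteries, against 0.218, 1.22, 0.0554 and 0.156 among deletion arteries. Kap was high in 2 wild-type libraries only, and the groups overlapped (log2 -1.29, SE 0.61, limma adjusted p = 0.893). Like Ggt1, Kap passed the filter only through the wild-type group, so its p is no support for a difference either. Ass1 averaged 2.23 ± 0.591 and 1.47 ± 0.565 FPKM, Pdzk1 4.52 ± 1.67 and 3.37 ± 0.501, and Slc3a1 1.06 ± 1.3 and 0.223 ± 0.158 (SD, n = 4 each; wild-type arteries first). Their log2 fold changes were -0.49, -0.33 and -0.77, each with a limma adjusted p of 0.893. The wild-type arteries 1 to 4 gave 2.89, 1.09, 0.168 and 0.101 FPKM of Slc3a1, which like Ggt1 was not tested without wild-type 1. Of the 20, 15 had values below 0, against 40.3% of all genes, with a median of -0.20 against 0.04 over all genes. Ggt1, Kap, Slc3a1, Slc6a19, Slc5a1 and Slc5a12 averaged under 0.5 FPKM in the deletion arteries and passed the filter only through the wild-type group. Such members enter the split on the side below 0. With no filter on low values, 8 of 39 members were above 0 and 31 below. With a filter at 1 FPKM, 4 were above and 9 below. The part of the filter in the split of the 20 was not tested further. That split also changed with the libraries used. Without wild-type 4 the median was -0.35 with 15 of 20 below 0, and without deletion 2 there were 1 above and 18 below. Without both wild-type 1 and wild-type 4 there were 6 above and 9 below, with a median of -0.10. Leaving out wild-type 1 alone, the split was 8 above and 7 below and the median 0.03 over the 15 members then tested.

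Artery wild-type 1 was the highest of the 8 arteries for 15 of 39 members. The share of all artery genes highest in that library was not computed, so the count alone does not set the members apart. Wild-type 1 was not the highest for Dpp4 (5.64 FPKM, against 8.09 in deletion 2), Slc7a9 (1.15 against 1.65 in deletion 2) or Slc2a2 (0.19 against 0.226 in deletion 1). Slc6a19 stood at 5.03 FPKM in it and at most at 0.458 in the other 7 arteries, Slc5a1 at 4.01 against 0.717, Slc5a12 at 4.07 against 0.282, Slc13a1 at 2.37 against 0.253, and Anpep at 20.5 against 9.06. Fabp2, the fatty acid binding protein of the small intestine, was at 14.7 FPKM in this library and at most 1.33 in the others, and the brush border protein Vil1 at 5.91 against 0.624. The summed FPKM of the 7 measured intestinal markers was 29.9 in wild-type 1, at most 3.28 in the other arteries, and none of the 7 was at 0 in all arteries. Artery deletion 2, next in Fabp2, was also next in Slc6a19 and Slc5a1. Kap and Slc34a1 had another order: both were highest in wild-type 2 (4.003 and 1.06 FPKM), where Fabp2 was listed at 0, and wild-type 1 was next (3.75 and 0.643). Wild-type 2 was also the highest artery for Pck1, Miox, Slc5a2, Slc6a18, Slc27a2, Slc7a7, Slc26a1, Slc34a3, Cyp24a1 and Cyp27b1. The part of intestinal transcripts in the artery difference of these members was not tested beyond leaving out wild-type 1.

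**Figure D5:**
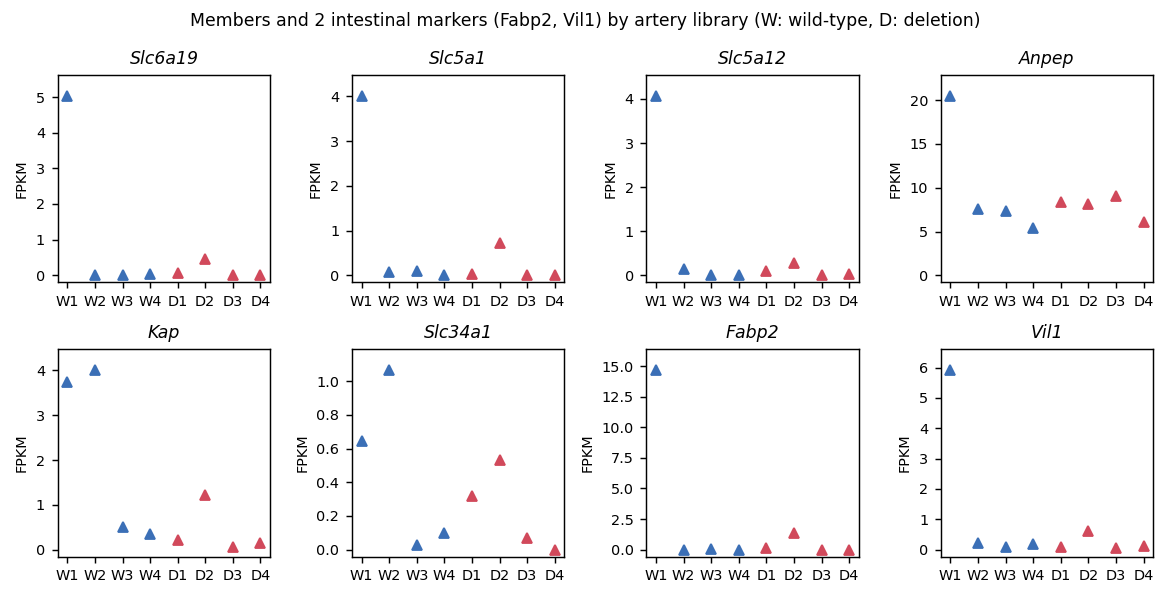
FPKM of 6 members and of the intestinal markers Fabp2 and Vil1 in each artery library (W wild-type, D deletion, linear axes). Slc6a19, Slc5a1, Slc5a12 and Anpep peak in wild-type 1 with Fabp2 and Vil1, while Kap and Slc34a1 are high in both wild-type 1 and wild-type 2.

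The deletion effect was not called different between the tissues for any member. A limma interaction term between tissue and genotype, fitted on the 15 libraries, called 0 of 39 members, against 0% of the 17842 genes tested. At an unadjusted p under 0.05 there were 0 members, against 4.3% of all genes. The smallest p was that of Ggt1, whose effect in kidney exceeded that in artery by a log2 difference of 0.75 (SE 0.37, limma unadjusted p = 0.0615, adjusted p = 0.947). Its 95% confidence interval spanned 0.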

How the data were processed

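RNA-seq of 7 kidney cortices and 8 mesenteric arteries was analysed. The authors deposited 1 table of FPKM values with 1 column per library, and the columns were matched to samples by the library names in the labels. Per the submitters' processing notes, the processing involved rn7, DESeq2 1.46.0, HISAT2 2.2.1 and Trim Galore 0.6.2, with no role stated, and which program computed FPKM is not given. The deposited coverage signal, 1 column of no stated sample, was not used. Of 40694 rows, 6337 carry no identifier and were left out, as all are 0.

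Values were analysed as log2(FPKM + 0.5), with no other scaling; read depth is unknown, so precision rests on the spread between libraries. Genes averaging 0.5 FPKM or more in the tissue (in either tissue for comparisons of tissues) were tested in limma 3.58.1, R 4.3.3, with trended and robust moderation, two-sided, and Benjamini-Hochberg adjustment over all genes tested. Called means an adjusted p under 0.05. The code was tested on simulated data. The members and lists were chosen with earlier results of these data known. Fold changes with tests were given for the 12 members with the smallest kidney p, which include the highest and lowest fold change, the 5 with the smallest artery p, and up to 2 genes of the lists with the smallest p; other genes with such values (Slc9a3, Dab2, and those of the tissue comparison and the interaction) were chosen after their values were seen. Alternatives were pseudocounts of 0.1 and 1, other filters, median-of-ratios scaling, array weights, a replicate block and leaving out libraries. Chosen after seeing the data were scaling without Rn7sl1 and leaving out pairs of doubtful libraries. Some results on list genes and on a promoter motif are not reported here. Python 3.11.15 with matplotlib 3.10.9 drew the figures.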

Additional observations from a re-analysis of the deposited data

Results flagged for a closer look

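Within the 4-library groups, 79 member-by-group sets were searched for a library far from the rest. Chance marks about 1 in 20 of unselected sets. Artery sets were searched only for members with an artery mean of 0.5 FPKM or more. Slc6a19, Slc5a1 and Slc5a12 reached that mean only through wild-type 1, so the rate of 1 in 20 does not apply to their sets. Such a library was found 10 times. Of these, 5 lay in artery wild-type 1, where Slc6a19 stood at 5.03 FPKM (next highest of its group 0.0334), Slc5a1 at 4.01 (0.0927), Slc5a12 at 4.07 (0.15), Anpep at 20.5 (7.62) and Pdzk1 at 7.01 (3.84). Another 4 lay in artery deletion 2, where Slc5a1 stood at 0.717 FPKM (0.0366), Slc6a19 at 0.458 (0.0749), Kap at 1.22 (0.218) and Slc4a4 at 22.3 (14.4). The last was Cyp27b1 in kidney deletion 3, at 2.2 FPKM (0.712).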

How the results depend on the processing

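No member was called in kidney, in artery or for the difference between tissues under any alternative run, and all 39 were called between tissues under all of them. Genes called over all genes in kidney numbered 282 with array weights (0 of 39 members; at an unadjusted p under 0.05, 12 of 39 members against 26% of all genes) and ran from 0 to 1 when single libraries were left out. The array weights in kidney were 18.2 for wild-type 2, but 0.388 for wild-type 1 and 0.296 for wild-type 3. The wild-type side of that fit thus rests largely on 1 library. In artery 1 gene was called with a pseudocount of 0.1, 1 with scaling without Rn7sl1, and 0 to 1 when single libraries were left out. The members' median between tissues was 8.12 with a pseudocount of 0.1 and 5.77 with 1. Among the members given with fold changes, directions turned for Slc5a1 with array weights (0.42), for Cyp24a1 without kidney wild-type 3 (its values with single libraries left out ran from -0.0776 to 0.786), and without kidney wild-type 3 and deletion 2 together for Slc5a1 (0.0939), Pdzk1 (0.107), Slc5a2 (0.0785), Amn (0.0826) and Lrp2 (0.0703); the cause was not tested. Over all 39 members, 13 changed sign without deletion 2, among them Slc6a19, Slc34a3, Slc3a1, Ass1, Miox and Fbp1. A filter at 1 FPKM left 13 members in artery, without Ggt1. Whether replicate numbers pair the samples cannot be told from so few libraries. Same-numbered deviations correlated at 0.08, -0.0079 and 0.27 in kidney and at 0.32, -0.34, 0.24 and 0.30 in artery. Number 3 in kidney and number 4 in artery matched their own number best in both genotypes, and the other numbers did not. With a replicate block, 0 genes were called in kidney (460 at an unadjusted p under 0.05) and 0 in artery (843). With FPKM alone, depth is unknown, and members near 0 in artery have the least certain values.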
